A study of Mus musculus with 4 samples.

Results

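The nuclear genes of oxidative phosphorylation were examined in mouse embryonic stem (ES) cells, as genes whose symbol begins with Nduf followed by a, b, c, s or v and a number, with Uqcr, with Cox4 to Cox8 or with Atp5, or is Sdha, Sdhb, Sdhc or Sdhd. Symbols of the assembly factors, beginning with Ndufaf and Sdhaf, were kept out. The rule used no measured value and found 83 of 22718 genes, of which 36 belong by symbol to complex I, 4 to complex II, 7 to complex III, 19 to complex IV and 17 to complex V. The symbols bring in a few genes that are not structural subunits, such as Cox4nb, which is named for its place next to Cox4i1, and Cox7a2l, which takes part in joining complexes III and IV. Atp5s and Atp5sl, placed in complex V by symbol, are not counted as subunits either.

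The study asked which genes the homeodomain protein Prep1, encoded by Pknox1, binds and controls in ES cells. Polyadenylated RNA was sequenced from wild type ES cells and from Prep1-/- ES cells of the line KO2, with 1 library per genotype, and chromatin immunoprecipitation with an antibody to Prep1 was sequenced in wild type ES cells beside input DNA. Both RNA samples carry the strain label C57BL/6, both lines were derived in the authors' laboratory, and the cells were grown on gelatin with serum and leukemia inhibitory factor. The chromatin has the same strain label, while its protocol names R1 ES cells. Each genotype is 1 line and 1 library, so genotype, line and library cannot be told apart, and no difference below has a replicate check.

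Oxidative phosphorylation takes electrons from NADH at complex I and from succinate at complex II, passes them through ubiquinone to complex III and through cytochrome c to complex IV, where oxygen is reduced. The proton gradient built on the way drives the ATP synthase, complex V. Nuclear genes encode all of complex II and most subunits of the others, and the remaining subunits come from mitochondrial DNA, whose genes were not analysed here. Pluripotent cells are known for relying on glycolysis more than most differentiated cells do, while they keep a working respiratory chain.

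Over all genes, 29596294 wild type reads were listed and 25717811 for the library labelled Prep1-/-. The paper's methods state a depth per sample several times lower than these sums, and the reason was not tested. If fragments were counted more than once, the counting intervals below are too narrow. RPKM, which scales reads by gene length and library size, was also deposited and is proportional to the read count plus 1. For each gene the KO/WT ratio compares the RPKM of the second library with that of the first, and its 95% interval comes from an exact (Clopper-Pearson) interval on the split of the reads. Such an interval holds only the error of counting, and it sets 1 library against the other and says nothing of the spread within a genotype. Pknox1 kept 332 reads in the library labelled Prep1-/- beside 505 in wild type, a ratio of 0.736 (0.638 to 0.846), so its RNA level alone does not identify the knockout library. By immunoblotting, the paper reports that Prep1 protein was lost in the line KO2. Of the ES cell markers, 8 of 8 had RPKM above 1 in both libraries, with a range of 11.7 to 767 in wild type. In 7 of the 8 the interval lay wholly above 1, beside 20.8% of all genes with RPKM above 1 in both libraries. Zfp42 went the other way, with 397 and 284 reads and a ratio of 0.801 (0.684 to 0.934). The median log2 ratio of all 8 was 0.31, and Klf4 was past the upper threshold at 1.58. Other markers went both ways. Of 5 primitive endoderm markers, Gata4 (0.339), Gata6 (0.456) and Sox17 (0.425) were below 0.7, while Sox7 was at 1.39 and Afp had 1 and 6 reads. Of 4 trophectoderm markers, Cdx2 (0.221), Hand1 (0.325) and Krt7 (0.489) were below 0.7, and Elf5 had 3 and 7 reads. In wild type the 6 fibroblast markers ranged from 0.0723 RPKM in Postn, on 6 reads, to 123 in Acta2. Of the 6, 4 had RPKM above 1 in both libraries, with Col1a1 at 13.2 and 17.99. All 6 ratios were above 1, and the intervals of Col1a2, Col3a1 and Thy1 spanned 1. Over all genes with RPKM above 1 in both libraries, 41.2% had a ratio above 1. The part of these differences in the results below was not tested.

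Prep1 was found at a minority of these genes. Of the 3902 deposited Prep1 peaks, 1 lay at an annotated start, from 500 bases before to 100 bases after it, of each of 9 of the 83 genes. The share over all 21446 genes with an annotation was 8.59%, and over genes above 1 RPKM in both libraries it was 12.3%, so 9 of 83, or 10.8%, was near the background. The 9 genes were Ndufa11 in complex I, Sdhb in complex II, Cox5b, Cox6b1, Cox7a1 and Cox8a in complex IV, and Atp5b, Atp5e and Atp5g1 in complex V, with none in complex III. The peak at Atp5b, the catalytic beta subunit of the ATP synthase, had a score of 242, above that of 99.4% of all peaks. The score is the whole number deposited with each peak, with a median of 21 over all peaks. The peak at Atp5e, the epsilon subunit, had a score of 100, and those at Cox8a and Cox7a1 had 55 and 22. The other 5 lay below the median, with 17 at Sdhb and Cox5b, 13 at Atp5g1, 11 at Cox6b1 and 7 at Ndufa11. The peak at Atp5b also lay at an annotated start of SNORD59, and that at Ndufa11 at one of AI662250.

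The Prep1 decamer TGANTGACAG, the sequence known to be bound by Prep1 with its partner Pbx, was searched on both strands of the 9 peaks on mm9 and was present in 2 of them, that at Sdhb included. In 949 of all 3902 peaks, or 24.3%, the decamer was present. These counts are of the exact letters only. The paper reports its decameric motif in most of the same peaks, from a motif search that does not require these exact letters. A peak without the letters may therefore still hold the motif in the paper's sense. With a free base at the A of TGACAG, a further site lay in the peak at Atp5e. A site of each form is shown, since these are matches inside peaks of these genes, with the decamer in capitals and 10 bases to either side on the strand that carries it.
Sdhb (chr4:140516956-140516985, plus strand): gagtcacaggTGATTGACAGacaccactgc
Atp5e, free base (chr2:174289603-174289632, minus strand): gatgaggcgcTGACTGGCAGgtccgcgtac
Counted from 0 at the first base of the gene, the site at Sdhb runs from -152 to -143, and the site with a free base at Atp5e from -16 to -7. The strongest of the 9 peaks, at Atp5b, held neither form of the decamer.

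**Figure D1:**
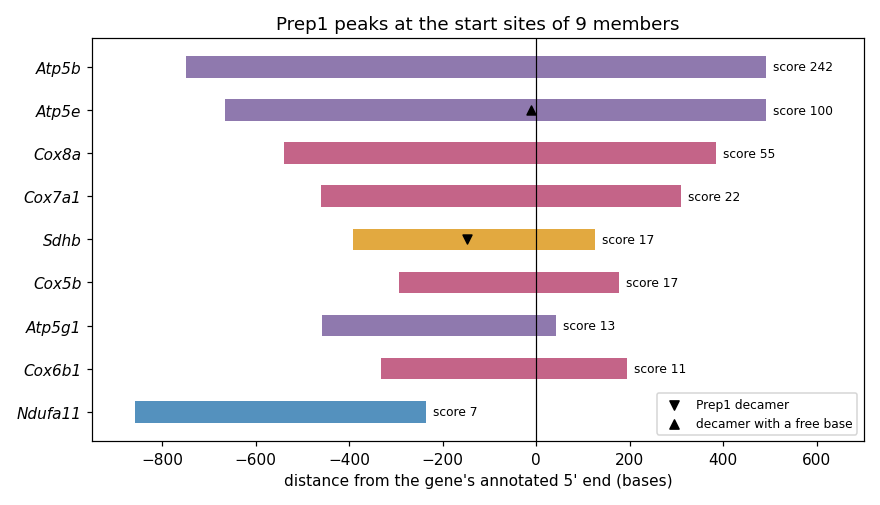
Prep1 peaks at the start sites of the 9 genes, as distance in bases from the gene's annotated 5' end on the horizontal axis, with 1 bar per peak, the deposited score beside it and triangles for the 2 sites whose sequences are given. Of the 9 bars 8 cross the start, and the bar of Ndufa11, with the lowest score of 7, ends at -237 bases.

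The median log2 KO/WT ratio was -0.21 over the 9 genes with a peak, and -0.10 over the 68 expressed genes without a peak, expressed meaning RPKM above 1 in both libraries. Among all expressed genes the medians were -0.11 for 1560 with a peak and -0.06 for 11147 without. Of the 9, 7 were lower in the library labelled Prep1-/- and 2 higher. Atp5b had 50893 wild type reads and 41710 in the other library, or RPKM of 1244 and 1140, a ratio of 0.916 (0.905 to 0.928). Sdhb, the iron-sulfur subunit of complex II, had 2685 and 2265 reads, or RPKM of 149.8 and 141, a ratio of 0.943 (0.892 to 0.998). Atp5e had 3497 and 2649 reads, a ratio of 0.847 (0.805 to 0.891). None of the 9 was past a threshold of 0.7 or 1.5.

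Letters known to be bound by 3 regulators of respiratory genes were searched on both strands in windows from 250 bases before to 50 bases after the 5' end of each gene on mm9: GCGCNNGCGC for NRF1, CCGGAAG for GABP and other ETS proteins, and AAGATGGC for YY1. NRF1 letters were in 15 of 83 windows, or 18.1%, beside 8.44% of all 21446 windows and 12.3% of those of expressed genes. The ETS letters were in 17, or 20.5%, beside 11.3% and 16.3%. The YY1 letters were in 11, or 13.3%, beside 4.07% and 4.79%. At least 1 of the 3 was in 39 windows, or 47.0%, beside 21.3% of all windows and 29.4% of those of expressed genes, and all 3 were in 1, that of Atp5h. No matches of different motifs overlapped in these genes. The median GC content of the windows was 56.0% in these genes and 59.3% in expressed genes. A match is a description of the letters, and binding of these 3 factors was not measured.

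The YY1 letters had a shared place. In 10 of the 11 genes they lay on the gene's own strand and began 20 to 49 bases after the 5' end, and in Atp5h they lay upstream on the other strand. Over all genes with the letters, 160 of 872, or 18.3%, had a match placed so, and over expressed genes 145 of 609, or 23.8%. In 9 of the 11 genes the ATG inside AAGATGGC was an annotated start codon, beside 174 of 872 over all genes, so that the letters are also the start of the coding sequence there. The range of 20 to 49 bases was chosen after the positions were seen. The sites of 2 genes, 1 of complex I and 1 of complex II, are shown on the gene's strand with the letters in capitals.
Ndufs4 (chr13:115178250-115178277, minus strand): tgcctacaggAAGATGGCggcggtctca
Sdhc (chr1:173080695-173080722, minus strand): gccggaactcAAGATGGCtgcgttcttg
In these the letters began 35 and 22 bases after the 5' end.

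For the other motifs, the sites of highly expressed genes are shown on the strand of the gene, the NRF1 letters first. The ETS letters read CTTCCGG where they lie on the other strand.
Cox6a1 NRF1 (chr5:115799110-115799139, minus strand): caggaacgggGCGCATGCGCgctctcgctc
Ndufa11 NRF1 (chr17:56857115-56857144, plus strand): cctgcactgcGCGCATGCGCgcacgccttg
Cox4i1 ETS, first (chr8:123192159-123192185, plus strand): ccgtcttggtCTTCCGGttgcgggccc
Cox4i1 ETS, second (chr8:123192180-123192206, plus strand): gggccccgttCTTCCGGtcgcgagcac
Cox8a ETS (chr19:7292095-7292121, minus strand): ttccgaaataCTTCCGGctcgggcgtc
Both ETS sites of Cox4i1 lie in the windows of 2 members, since Cox4nb starts 178 bases away on the opposite strand. The 17 genes with the ETS letters had a median log2 ratio of -0.21 and the 60 other expressed members -0.10. For NRF1 the medians were -0.10 in 14 genes and -0.11 in 63, and for YY1 -0.08 in 11 and -0.11 in 66.

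As a set, the genes were highly expressed and differed little between the libraries. Of the 83, 62 had a wild type RPKM above 50, and their reads made up 1.06% of the wild type reads and 1.01% of those of the library labelled Prep1-/-. RPKM was finite for 82, above 1 in either library for 80 and above 1 in both for 77. Over these 77 the median KO/WT ratio was 0.929, or -0.11 on the log2 scale, with the middle 50% of genes from -0.24 to -0.00. Over all 13218 genes filtered in the same way the median was -0.07, and over the 2035 with RPKM above 50 in both libraries -0.06. Over the 776 with an annotated transcript of at most 1000 bases it was -0.13, with 34.3% above 1. The members, whose median transcript is 861 bases long, had a median between that of all genes and that of genes with short transcripts. Their share above 1, at 24.7%, was lower than that of genes with short transcripts, so the order depends on the measure. The ratio was above 1 in 19 of the 77 and below 1 in 58, while 41.2% of all genes were above 1. The 95% interval lay wholly below 1 in 43 of the 77 and wholly above 1 in 10, beside 36.8% and 20.8% of all genes. With each chromosome's median set to 0 the number above 1 became 33 of 77, beside 49.97% of all genes under the same centring, and the median became -0.02. A KO/WT ratio below 0.7 with wild type RPKM above 1 was found in 3 members (all genes 13.3%), and a ratio above 1.5 with an RPKM over 1 in the other library in 2 (all genes 6.91%). Among the 2035 genes with RPKM above 50 these calls were rarer, with 79 down and 22 up.

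**Figure D2:**
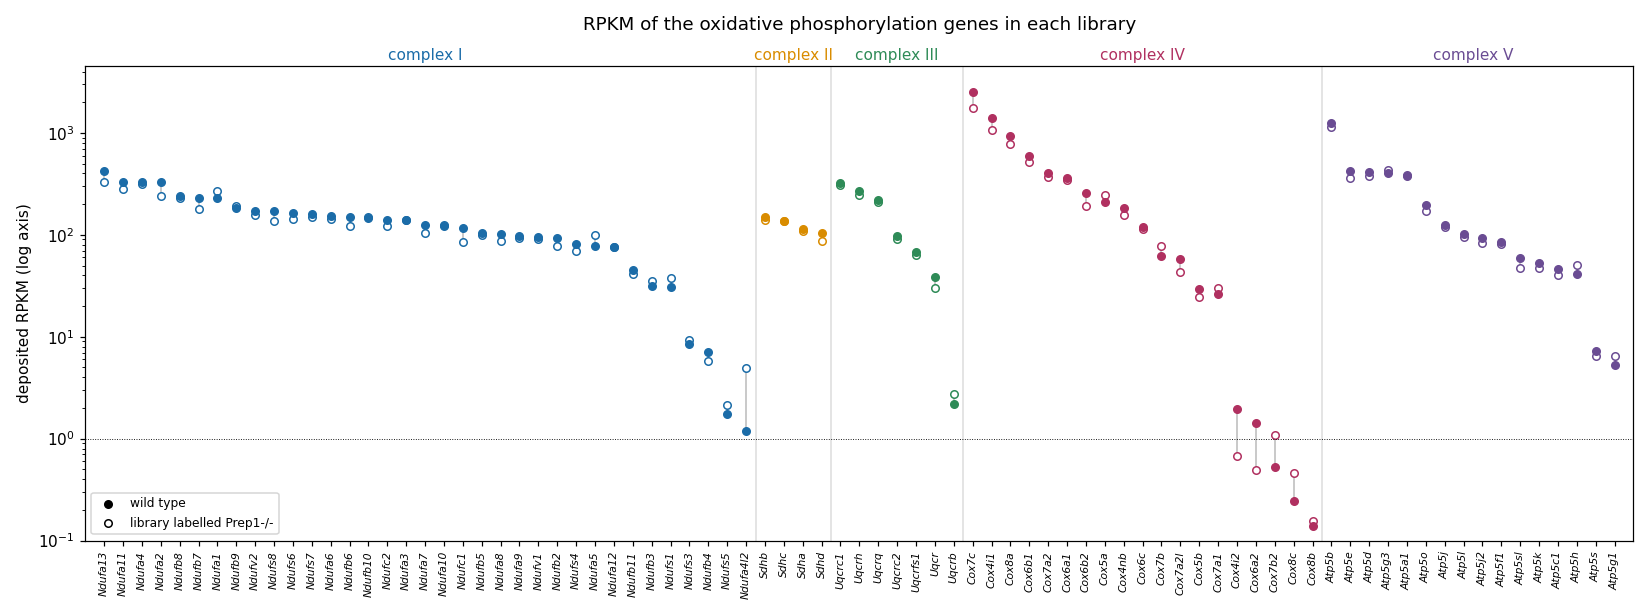
Deposited RPKM on a log axis of 81 members with finite values, grouped by complex and ordered by the wild type value, with filled circles for the wild type library and open circles for the library labelled Prep1-/-. Most pairs lie close together between 30 and 500 RPKM, and the tissue isoforms at the right of complex IV lie near or below 1 (dotted line).

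Complex I accepts electrons from NADH, and its 36 genes had a median log2 ratio of -0.10, with 25 below 1 and 11 above. The 3 highest in wild type RPKM were the accessory subunits Ndufa13, Ndufa11 and Ndufa4. Ndufa13, also known as Grim19, had 3699 and 2535 reads, or RPKM of 427 and 328, a ratio of 0.766 (0.728 to 0.806). Ndufa11 had 3135 and 2371 reads, or 334 and 282 RPKM, a ratio of 0.846 (0.801 to 0.892). Ndufa4, since assigned to complex IV by biochemistry, had 2774 and 2384 reads, or 330 and 318 RPKM, and its ratio of 0.961 had an interval that spans 1 (0.909 to 1.02). The lowest ratio was that of Ndufc1, with 685 and 451 reads and a ratio of 0.737 (0.652 to 0.830).

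The catalytic core of complex I went both ways. Ndufv1 and Ndufv2, which carry the site of NADH oxidation, had ratios of 0.949 and 0.896, and Ndufs7 and Ndufs8, on the path to ubiquinone, had 0.929 and 0.794. Ndufs1, the largest subunit of the peripheral arm, was higher in the library labelled Prep1-/-, with 1553 and 1706 reads, or 30.6 and 37.6 RPKM, a ratio of 1.23 (1.15 to 1.32). The core subunit Ndufs3, with 68 and 66 reads, had a ratio of 1.09 whose interval spans 1 (0.762 to 1.55). Among accessory subunits, outside the core, Ndufa5 was also higher, with 479 and 548 reads, a ratio of 1.28 (1.13 to 1.45). Ndufa1, an accessory subunit on chromosome X, had a ratio of 1.16 (1.08 to 1.25). The intervals of Ndufs1, Ndufa5 and Ndufa1 lay wholly above 1.

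The largest difference in the set was in Ndufa4l2 (chr10:126951995-126954208, plus strand), a paralog of Ndufa4 known as a target of hypoxia-inducible factor. It had 27 wild type reads and 103 in the library labelled Prep1-/-, or RPKM of 1.198 and 4.97, a ratio of 4.15 (2.77 to 6.78). The counts remained low beside those of Ndufa4, and Ndufa4l2 made up 0.361% of the summed RPKM of the pair in wild type and 1.54% in the other library. It was the only member past the upper threshold with more than 20 reads in the libraries together.

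Complex II oxidizes succinate and belongs to the citric acid cycle as well, and its 4 genes had ratios from 0.848 to 0.990. Sdhb, Sdhc and Sdha were the 3 highest in wild type, with 149.8, 137 and 113 RPKM, and Sdhd followed with 104. The flavoprotein Sdha had 5624 and 4852 reads and a ratio of 0.965 (0.928 to 1.00). The highest ratio was that of the membrane anchor Sdhc, with 5895 and 5217 reads at 0.990 (0.953 to 1.03), and the lowest that of the other anchor, Sdhd, with 3518 and 2669 reads at 0.848 (0.806 to 0.892). Of the 4 intervals 2 lay below 1 and 2 spanned it. The median log2 ratio of -0.07 turned to 0.00 under trimmed-mean scaling of the counts.

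Complex III passes electrons to cytochrome c, and 6 of its 7 genes were below 1 with intervals that lay below 1. Uqcrc1, a core protein, had 9643 and 8199 reads, or 321 and 305 RPKM, a ratio of 0.951 (0.923 to 0.979). Uqcrh, the hinge protein, had 267 and 244 RPKM at 0.914, and Uqcrq had 221 and 209 at 0.947. Uqcrfs1, the Rieske iron-sulfur protein, had a ratio of 0.928 (0.874 to 0.986). The lowest was Uqcr, with 217 and 153 reads at 0.790 (0.637 to 0.974). The remaining gene, Uqcrb, had only 7 and 8 reads, and its ratio of 1.26 had an interval from 0.405 to 4.14.

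Complex IV, cytochrome c oxidase, had the lowest median of the 5 complexes, at -0.22 on the log2 scale over 14 genes, with 11 below 1 and 3 above. The middle 50% of its genes ran from -0.35 to -0.06. Without the members that are not subunits its median was -0.18. With each chromosome's median set to 0 the lowest medians were close together, at -0.036 in complex II, -0.040 in III and -0.043 in IV. Complex IV held the highest RPKM values of the set. Cox7c (chr13:86184421-86186509, minus strand) was listed at 2550 RPKM in wild type and 1769 in the other library from 1322 and 820 reads, a ratio of 0.694 (0.635 to 0.757), and was the only member past the lower threshold with RPKM above 5. Under each planned scaling of the libraries other than the deposited one its ratio was above 0.7, from 0.714 to 0.730, and the lower threshold then left Cox4i2 and Cox6a2 alone. With each GC bin's median set to 0, a setting added after the data were seen, the ratio of Cox7c was 0.652. The nearest ratios on the other side of the threshold were 0.737 in Ndufc1 and 0.740 in Ndufa2. Cox4i1, the ubiquitous form of subunit 4, had 19202 and 13227 reads, or 1387 and 1068 RPKM, a ratio of 0.770 (0.753 to 0.787). Cox8a had 9162 and 6902 reads, or 924 and 778 RPKM, a ratio of 0.842 (0.816 to 0.869). Above 1 were Cox5a at 1.18 (1.11 to 1.24), Cox7b, on chromosome X, at 1.27 (1.12 to 1.44), and Cox7a1 at 1.14, whose interval spans 1 (0.898 to 1.45).

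**Figure D3:**
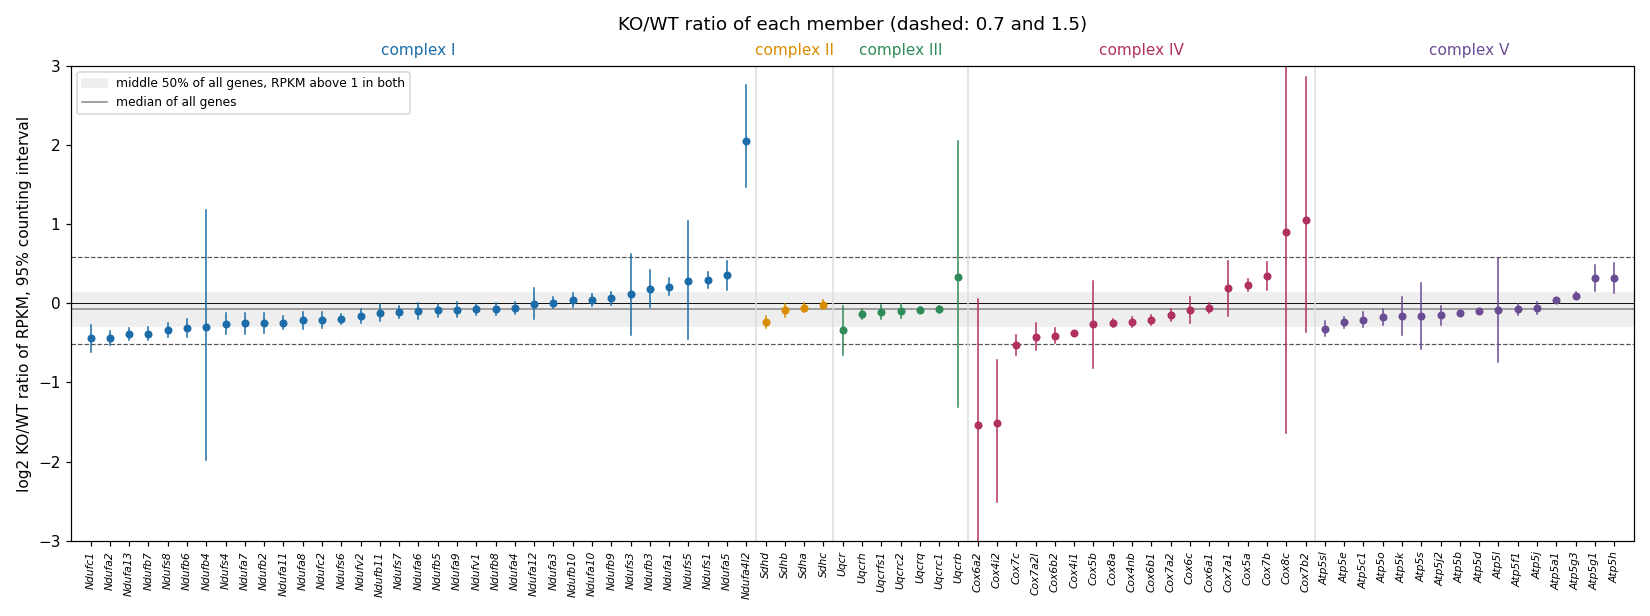
Log2 KO/WT ratio of members with reads and finite RPKM, ordered by ratio within each complex, with points for the ratio, vertical lines for the 95% counting interval (those of Cox6a2 and Cox8c run past the axis), a grey band for the middle 50% of all genes and dashed lines at 0.7 and 1.5. Most points lie within or just below the grey band, and Ndufa4l2 stands apart at 2.05.

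Complex IV is also where most tissue isoforms lie, and these were at low levels with 1 exception. Of the 8 tissue-restricted isoforms among the members, 3 had RPKM above 1 in both libraries. Cox6b2, known as the testis form of subunit 6B, had 2307 and 1554 reads, or 255 and 192 RPKM, a ratio of 0.753 (0.706 to 0.804). It made up 30.0% of the summed RPKM of Cox6b1 and Cox6b2 in wild type and 27.2% in the library labelled Prep1-/-, and none of its transcript's 50-base words had a copy elsewhere in the genome. The ubiquitous form, Cox6b1, had 5120 and 3955 reads at 0.864 (0.828 to 0.900), so both forms were lower. Cox7a1, the form of heart and muscle, made up 5.36% and 6.83% of its set, in which Cox7a2 held 82.8% and 83.3% and Cox7a2l 11.8% and 9.85%.

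The other isoforms of complex IV rested on few reads. Cox4i2 (chr2:152579909-152590773, plus strand), a form known from lung and linked to low oxygen, had 50 and 15 reads, or RPKM of 1.93 and 0.679, a ratio of 0.351 (0.175 to 0.607). Cox6a2, the heart and muscle form, had 12 and 3 reads and a ratio of 0.344 whose interval reaches above 1 (0.0506 to 1.04). Cox7b2 had 6 and 12 reads, a ratio of 2.08 (0.777 to 7.26). Cox4i2 and Cox6a2 were counted past the lower threshold and Cox7b2 past the upper, and none of the 3 remained with an RPKM minimum of 5. Cox8c, a testis form, had 2 and 4 reads and Cox8b, the muscle form, 0 and 0, while Cox8a held 99.96% and 99.92% of the summed RPKM of its set. Muscle markers were low as well: Actc1 had 1.09 and 1.84 RPKM, Ckm 0.577 and 0.238, and Myod1 0.163 and 0.142.

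Complex V, the ATP synthase, held the most reads of the set, at 0.451% of the wild type library and 0.442% of the other, and a median log2 ratio of -0.11 over 16 genes. Subunits of its catalytic head ranged widely in level. Atp5b was highest in RPKM, followed by Atp5e with 425 and 360, and Atp5d, the delta subunit, with 25556 and 21336 reads, or 409 and 382 RPKM, a ratio of 0.934 (0.917 to 0.951). Atp5a1, the alpha subunit, was slightly above 1, with 28055 and 25773 reads at 1.03 (1.01 to 1.04), so the subunits that alternate in the head had ratios on either side of 1. Atp5c1, the gamma subunit of the central stalk, was lower in level, at 46.1 and 40.0 RPKM, with a ratio of 0.868 (0.813 to 0.927). The lowest ratio was that of Atp5sl, at 0.801 (0.750 to 0.854), which is in the group by symbol and is not counted as a subunit. Among the subunits the lowest was Atp5e at 0.847. The highest ratio was that of Atp5h, subunit d of the stalk, with 441 and 494 reads at 1.25 (1.10 to 1.43). Without the members that are not subunits the median of complex V was -0.09.

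The membrane ring of the synthase is built from 1 protein that 3 genes encode with different import sequences. Atp5g3 had 9749 and 9344 reads, a ratio of 1.07 (1.04 to 1.10), and 98.7% and 98.5% of the finite RPKM of the set. Atp5g1 had 581 and 647 reads, or 5.24 and 6.52 RPKM, a ratio of 1.24 (1.11 to 1.40). Atp5g2 had 25 and 34 reads, and its RPKM was listed as Inf in both libraries. The ratio from its reads was 1.51 (0.881 to 2.66). All 3 were thus above 1, with Atp5g2 not distinguishable from 1 at its depth.

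Place in the genome went with the ratios. The 4 members on chromosome 8, Cox4i1, Cox4nb, Ndufa13 and Ndufb7, all had intervals below 1 and ratios of 0.770, 0.852, 0.766 and 0.768, a median of -0.38 on the log2 scale. All 702 expressed genes of chromosome 8 had a median of -0.36, against -0.07 over the genome. On chromosome X the 3 members were Ndufa1, Cox7b and Ndufb11, with ratios of 1.16, 1.27 and 0.924, and all 548 genes there had a median of 0.12. With each chromosome's median set to 0, the median of complex IV went from -0.22 to -0.04 and that of complex I from -0.10 to -0.02. With only the members on chromosomes 8 and X left out, the medians changed little. They were then -0.21 for complex IV, -0.09 for complex I and -0.10 for all remaining members. The cause of the difference between chromosomes was not tested, and with 1 line per genotype it cannot be told apart from the genotype.

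**Figure D4:**
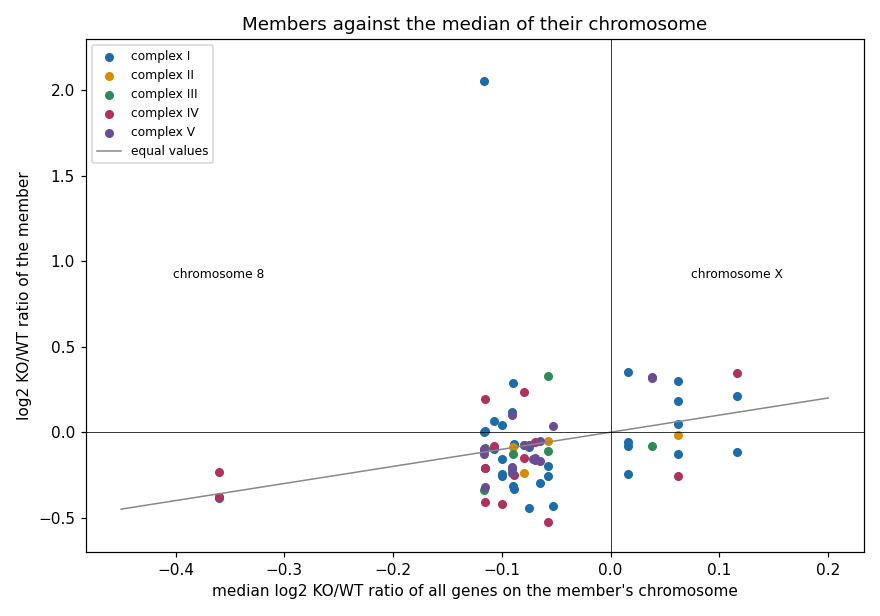
Log2 KO/WT ratio of the 77 expressed members against the median log2 ratio of all such genes on the same chromosome, coloured by complex, with a line at equal values. The 4 members of chromosome 8 lie near the line at the left, between -0.38 and -0.23, and Ndufa4l2 lies far above the others at 2.05.

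GC content of the transcript went with the ratio over all genes, with a Pearson r of -0.215 and a Spearman rho of -0.246 across 11472 genes of the same 2 libraries, which are not independent replicates. Across the 77 members r was -0.003 and rho -0.183. The members from 56 to 60% GC had a median log2 ratio of -0.24 (13 genes) beside -0.17 for all genes of that range, and those from 48 to 52% had -0.08 (26 genes) beside -0.06.

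Several subunits that every respiring cell needs were listed with few reads, and their transcripts share sequence with other places in the genome. For each member the share of 50-base words of its longest annotated transcript that recur exactly elsewhere in mm9 was counted, 50 bases being the read length. Of the 83, 39 had no such word and 6 had over 50%. These 6 were Atp5g2 (100%, 25 wild type reads), Atp5l (89.4%, 45 reads), Cox5b (62.7%, 67 reads), Uqcrb (61.5%, 7 reads), Atp5h (59.6%, 441 reads) and Cox7a2l (54.3%, 701 reads), with a median of 56.0 wild type reads against 2307 in the other 77. Ndufs5 (49.8%, 31 reads), Ndufs3 (43.0%, 68 reads) and Ndufb4 (41.3%, 10 reads) followed. The tissue isoforms with few reads had no such word, so low counts occurred at both ends of this scale.

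The deposited RPKM also differs from reads per annotated length for these genes. The length that the RPKM and the summed reads together imply was 2.47% of the annotated transcript for Cox7c and 3.002% for Atp5l, against a median of 57.8% over the 77 members with at most 50% copied words. With the read count plus 1 divided by the annotated length, the order of wild type levels had a rank correlation of 0.875 with the order by RPKM over 82 members, and 7 of the 10 highest were shared. Cox7c itself had 27.9% copied words. Its first place among the levels, and the levels of the genes named here, therefore depend on how length was counted, whereas the KO/WT ratio does not, since the same length enters both libraries. Other entries of the same files are described as products of members: RP23-298F22.4, as cytochrome c oxidase subunit 5B, had 783 and 674 reads against 67 and 50 in Cox5b, and AC131919.13, as a fragment of ATP synthase subunit d, had 419 and 370 reads against 441 and 494 in Atp5h. Cox5b and Atp5h are therefore uncertain as single genes.

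**Figure D5:**
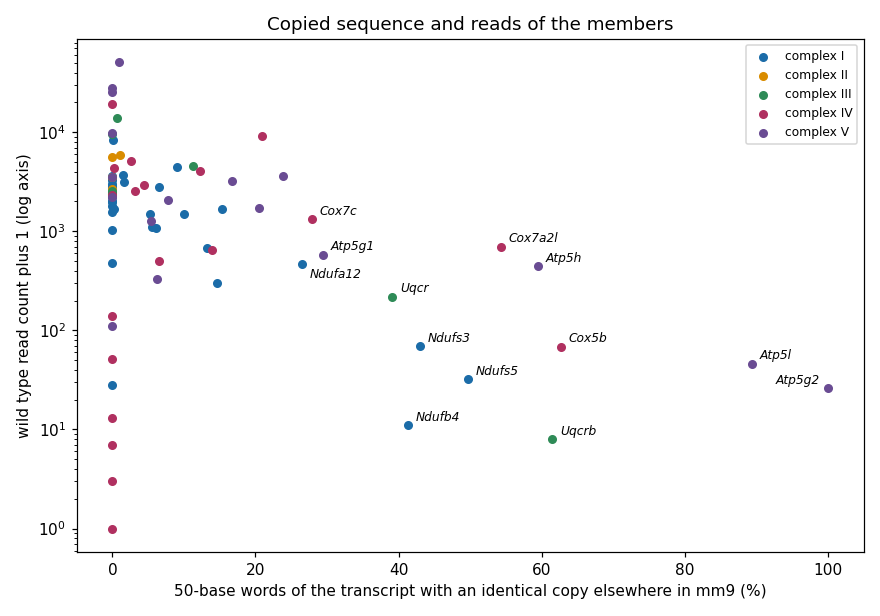
Wild type read count plus 1 on a log axis against the percentage of the 50-base words of each member's transcript that recur exactly elsewhere in mm9, coloured by complex. The members over 40% all lie below 1000 reads, and members without copied words span from 0 to 28055 reads.

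Genes around the respiratory chain were counted by the same thresholds. For comparison with each list below, 13.3% of all genes were down and 6.91% up. Highly expressed genes, at over 50 RPKM in each library, were called less often, with 79 down and 22 up among 2035. Of 76 mitochondrial ribosomal protein genes none was past either threshold, and their median log2 ratio was -0.00 over 75. Of 13 citric acid cycle genes none was past a threshold, with a median of -0.01. Of 23 assembly factors, Cox19, which works in copper delivery to complex IV, was down at 0.649 (0.556 to 0.754) with 471 and 273 reads, and Sco1, a copper chaperone of the same complex, was up at 1.79 (1.60 to 2.01) with 479 and 767 reads. Their median was 0.04.

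Among 17 genes for transcription of respiratory genes and expression of mitochondrial DNA, 1 was past a threshold. Tfb1m, a methyltransferase of mitochondrial ribosomal RNA, had 478 and 790 reads, a ratio of 1.85 (1.65 to 2.07). Nrf1 and Gabpa had ratios of 1.03 and 1.10, Yy1 had 0.900, and Tfam had 1.02. Ppargc1a had 0 reads in both libraries. Esrrb, with the most reads of the list, had 45815 and 54152, a ratio of 1.32.

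The carriers outside the rule included the largest ratio of these lists. Cyct, known as the testis form of cytochrome c, had 74 and 525 reads, or RPKM of 4.89 and 38.3, a ratio of 7.84 (6.21 to 10.3). Cycs, the somatic form, was listed at 0 reads in both libraries with an RPKM of Inf, so a level of somatic cytochrome c cannot be read from these values. Of its transcript's words 38.5% recur elsewhere in mm9, and whether this bears on the count was not tested. Cyc1, the cytochrome c1 of complex III, had 6519 and 5782 reads at 0.992 (0.957 to 1.03). Among 6 genes of uncoupling and inhibition, Ucp2 was up, with 2386 and 4580 reads at 2.15 (2.04 to 2.26), and Atpif1, the inhibitor of the synthase, had 6116 and 5301 at 0.969 (0.934 to 1.01).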

How the data were processed

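RNA-seq was analysed in 1 wild type and 1 Prep1-/- library and Prep1 ChIP-seq as 1 peak list; the input has no file of its own here. The authors deposited a whole-number read count per gene and an RPKM value, made with RSEM on Ensembl release 63 and mm9 (the submitters' notes also name DESeq), from paired-end reads of 50 bases. The authors deposited peaks called by MACS against input after BWA, with a whole-number score. Program versions are not given in the sources used here. The design had been written for RPKM, and although counts were present, no count test was run with 1 library per genotype. All p-values were therefore left out, and exact binomial intervals at 95% were taken from the counts. Reads are not independent molecules, so the intervals cover counting error only. The members and lists were chosen with earlier results of these data known.

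RPKM was proportional to the count plus 1, and ratios were multiplied by 1.12 to match it. RPKM of 85 genes was Inf, and these genes were left out of ratios. Genes were called down with a KO/WT ratio below 0.7 and wild type RPKM above 1, and up with a ratio above 1.5 and RPKM above 1 in the other library. Medians used RPKM above 1 in both. Genes named in full were those past a threshold, the 3 highest and the lowest and highest ratio in each complex, paralogs and tissue isoforms, genes with a peak, and the leading genes of the lists; others are named by role and were chosen after their values were seen. Coordinates are on mm9 with GENCODE M1, which held all 83 members and 21446 genes. Sequences were read from the mm9 genome. The values of 1 member and the sequence of 1 site are not reported here, while the counts include them. The list of mitochondrially encoded genes matched 0 entries. Alternatives were 5 other scalings, other thresholds, pseudocounts, filters, windows and sets of members, and, added after the data were seen, centring by GC content, a minimum of 100 reads and a looser decamer. Ratios, intervals and calls were tested on simulated data. Python 3.11.15, numpy 2.4.6, pandas 2.3.3, scipy 1.17.1, matplotlib 3.10.9, R 4.3.3 and edgeR 4.0.16 (for scaling factors) were used.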

Additional observations from a re-analysis of the deposited data

How the results depend on the processing

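Counts called rest on few reads: with RPKM above 5, 1 member was down and 0 were up, without paralog sets likewise 1 and 0, without members under 100 reads (chosen after seeing the data) 1 and 1, and with a pseudocount of 1 there was 1 up. The median log2 ratio of -0.11 followed the scaling: -0.0643 with summed counts, -0.0356 with edgeR's TMM factors, -0.0327 with the upper quartile, -0.0400 with the median of all genes set to 0, -0.0211 with each chromosome's and -0.0433 with each GC bin's median set to 0 (the last chosen after seeing the data). All genes move by the same amount under the first 4, so the members stayed 0.04 below them. With the deposited scaling their median lay above the -0.13 of genes with transcripts of at most 1000 bases. Their share above 1 was lower, at 24.7% beside 34.3% of those genes. Members above 1 numbered 33 by chromosome and 30 by GC bin, beside 49.97% and 49.98% of all genes. Cox7c was not down under the 5 other planned scalings or thresholds of 1/1.5 and 0.5, where 2 members were. With GC centring it was down, at 0.652. The median of complex II changed sign under TMM (0.0021), upper quartile (0.0051) and GC centring (0.0157) and was -0.0022 with the median of all genes set to 0. Members with a peak numbered 4 among peaks with a score above the median. The decamer was in 2 member windows of 250 bases before to 50 after the start, in 1 with 200 before, and in 4 with a free base. The causes of these changes were not tested. In all, 132 other values kept their direction, with counts within 1.5 times those reported. No paired analysis was possible because no result comes from a test and each genotype has 1 library. Genes under 20 reads in the libraries together, here 6 members, have intervals too wide to show a difference unless it is large.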
